A study of Mus musculus with 18 samples.

Results

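The genes described here encode matricellular proteins, which are secreted into the extracellular matrix and act there on cell adhesion and matrix assembly more than as structural fibres. The members are Postn, Tnc, Tnn, Thbs1, Thbs2, Thbs3, Thbs4, Sparc, Spp1 and Tgfbi, chosen by name as the periostin, tenascin and thrombospondin genes with 3 other matricellular genes. They are 10 of the 49184 genes to which the transcripts of the files were matched, and all 10 passed the filter on low counts. Many matricellular proteins are known to be scarce in resting adult tissue and to rise in healing, fibrous and loaded tissues. They bind collagens, fibronectin and one another, and signal to cells through integrins, syndecans, CD44, CD36 and CD47.

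RNA was measured in cartilage caps of the femoral condyle of wild-type male C57Bl/6J mice, which were 12 weeks old when they entered the study. In the injured groups, the anterior cruciate ligament of the right knee was ruptured by a single load of 12 N, and the unloaded left knee of the same mice served as the contralateral control. There were 3 day 1 injured, 3 day 1 contralateral, 3 day 7 injured and 3 day 7 contralateral libraries, and 6 naïve libraries from mice without injury, taken with the day 7 groups. Each library is a pool of knees, for which the deposited design gives 4 mice a sample, whereas the scheme of the study gives 2 at day 1, 4 at day 7 and 2 knees for each naïve library, of 6 naïve mice in all, with left and right knees pooled apart. Replicates are therefore pools, n counts libraries and not mice, and no label ties a library to particular mice. The replicate numbers used here follow the order of the deposited samples within each group and pair no libraries. Total RNA was sequenced after removal of ribosomal RNA, and the libraries held between 16074762 and 41794005 estimated counts (median 25465706). In bulk RNA of this kind, fewer cells of a type and less RNA per cell cannot be told apart.

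The labelled cell type is the chondrocyte. None of the 11 chondrocyte markers was at 0 in any library, and Col2a1, the gene of the main cartilage collagen, was the most abundant of them in all 18. The libraries also held RNA of other cells, since none of the 11 further marker lists had a gene at 0. One library, day 7 contralateral replicate 1, stood apart from the rest. Its 10 most abundant genes took 42.5% of its counts, against 16.6% to 29.8% in the other 17 libraries, and its Col2a1 level was 10448 CPM, that is estimated counts scaled to a common library size. The Col2a1 levels of the other libraries ran from 2187 to 4989 CPM, and the comparisons with day 7 contralateral knees were therefore also made without this library.

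Periostin is a secreted protein of fibrous matrices such as periosteum, ligament and healing tissue, and its coding sequence ends in a region whose exons are used or skipped. The estimated shares of Postn transcripts with and without these exons differed between groups, so the exons are shown first. They were read from GENCODE transcripts of the mouse genome GRCm38. Postn (ENSMUSG00000027750) lies on the plus strand at chr3:54361109-54391037, with an optional exon of 81 bases at chr3:54380412-54380492 and another of 84 bases at chr3:54385671-54385754. Both are coding and a whole number of codons long, at 27 and 28. Postn-202 holds both, Postn-203 only the first, Postn-201 only the second and Postn-204 neither. The optional exon is in capitals, with 20 bases of the neighbouring exon on each side in lower case, and the line after it gives the junction of Postn-204 at the same place.

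81-base exon in Postn-202: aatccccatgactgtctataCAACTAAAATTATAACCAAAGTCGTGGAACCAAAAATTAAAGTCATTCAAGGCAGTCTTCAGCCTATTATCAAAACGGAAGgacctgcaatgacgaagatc

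Junction without it in Postn-204: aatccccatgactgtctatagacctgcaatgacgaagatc

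84-base exon in Postn-202: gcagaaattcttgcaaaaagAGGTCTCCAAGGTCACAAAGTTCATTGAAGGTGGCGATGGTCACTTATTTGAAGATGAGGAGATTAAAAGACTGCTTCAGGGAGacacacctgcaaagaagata

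Junction without it in Postn-204: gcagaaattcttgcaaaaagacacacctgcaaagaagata

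The other members, all protein-coding genes of the same annotation, were Tnn (ENSMUSG00000026725, chr1:160085029-160153580, minus strand), Thbs1 (ENSMUSG00000040152, chr2:118111876-118127133, plus strand), Thbs2 (ENSMUSG00000023885, chr17:14665500-14694235, minus strand), Thbs3 (ENSMUSG00000028047, chr3:89215180-89226837, plus strand). They also included Thbs4 (ENSMUSG00000021702, chr13:92751590-92794818, minus strand), Sparc (ENSMUSG00000018593, chr11:55394500-55423183, minus strand), Spp1 (ENSMUSG00000029304, chr5:104435118-104441050, plus strand) and Tgfbi (ENSMUSG00000035493, chr13:56609523-56639562, plus strand).

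The first question was which of the genes differed in the injured knee at day 7. The common library size behind CPM was set by the trimmed mean of M-values (TMM). A gene was called at a false discovery rate (FDR) of at most 0.05 and a change of at least 1.5-fold in edgeR's quasi-likelihood test, adjusted over all genes tested. Against naïve mice, 8 of the 10 genes were called higher in day 7 injured libraries and none lower, namely Postn, Tnc, Tnn, the 4 thrombospondins and Sparc. Of all 21129 genes tested, 10.4% were called higher and 6.11% lower. On the log2 scale the members' median change was 1.53, and that of all genes tested was −0.04. The same 3 day 7 injured libraries against the day 7 contralateral libraries gave 8 of 10 called higher and none lower, where 9.33% of 21262 genes were called higher and 3.23% lower. Without day 7 contralateral replicate 1 the same 8 genes were called, at log2 fold changes of 4.76 for Postn, 1.06 for Tnc, 5.45 for Tnn, 0.91 for Thbs1, 4.2 for Thbs2, 2.96 for Thbs3, 2.22 for Thbs4 and 1.27 for Sparc. Spp1 was then at 0.04 (FDR 0.929) and Tgfbi at 1.35 (FDR 0.158). Spp1 and Tgfbi were the members not called in either comparison. The 3 day 7 injured libraries lay above all 15 others in CPM for 8 of the 10 genes, and for 11.9% of 21262 genes. They lay above all naïve libraries for 9 members and 17.3% of genes, and above all day 7 contralateral libraries for 9 members and 18.6% of genes.

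**Figure D1:**
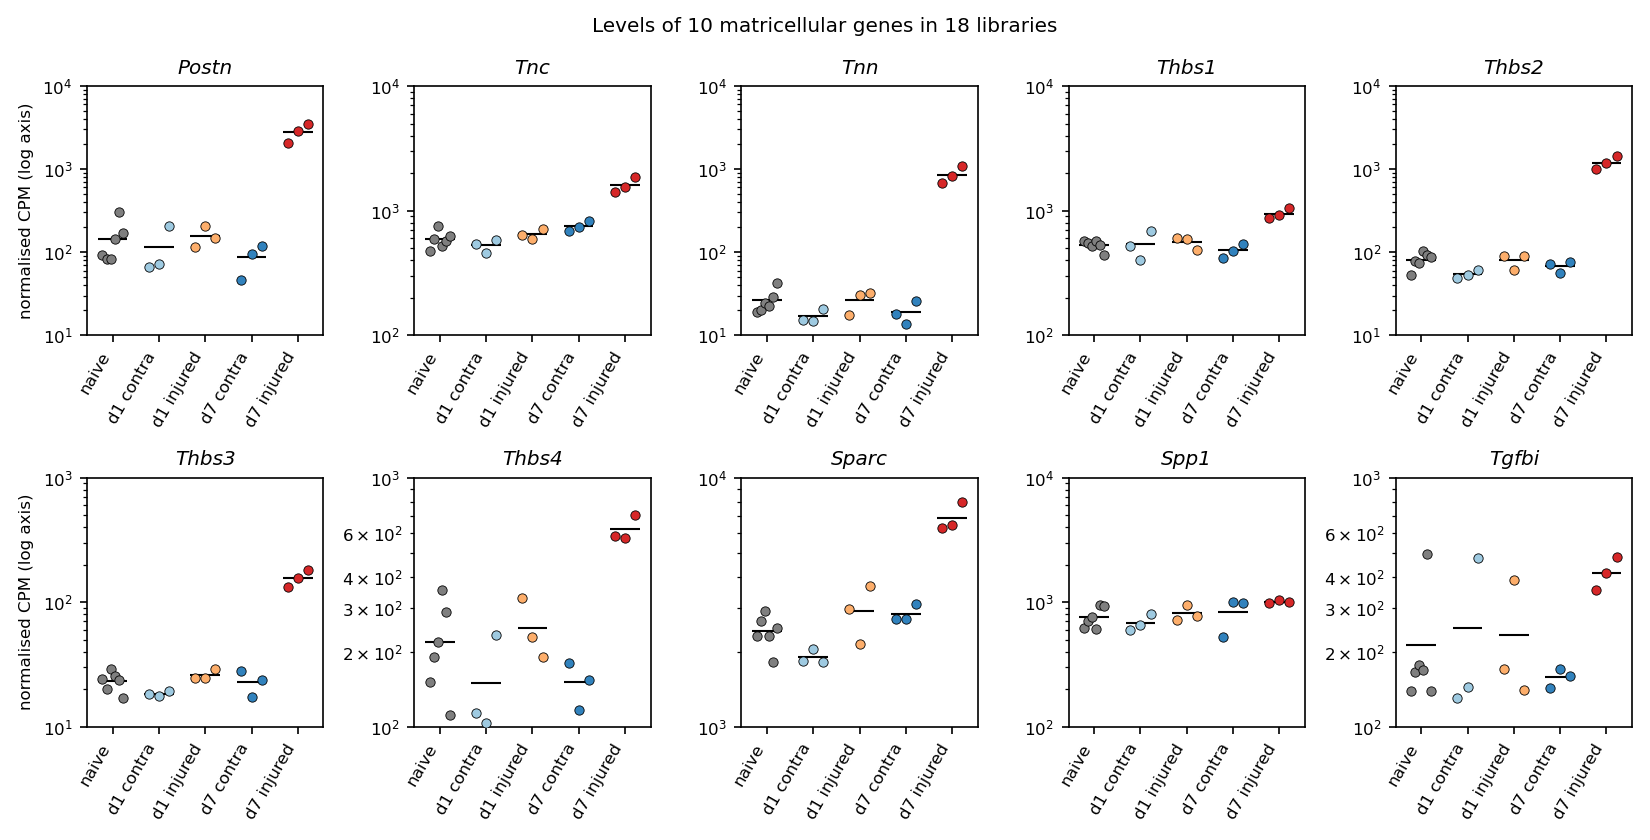
Normalised CPM on a log axis for the 10 genes in 18 libraries, with a point for each library and a line at the group mean. Day 7 injured libraries lie above all others for 8 genes, where this held for 11.9% of all genes, and for Spp1 and Tgfbi they overlap with other libraries.

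Postn was at 2087, 2906 and 3470 CPM in the 3 day 7 injured libraries. Naïve libraries ranged from 82.9 to 305 CPM with a median of 117, and the day 7 contralateral libraries were at 46.4, 94.9 and 117 CPM. Every day 7 injured library was thus above all 15 others. The log2 fold change was 4.29 (SE 0.43, FDR 2.98e-06) against naïve mice, or 19.5-fold, and 5.03 (SE 0.59, FDR 1.19e-05) against contralateral knees. Without day 7 contralateral replicate 1, the second value was 4.76 (FDR 0.000126).

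Tnn encodes tenascin W, a tenascin known from developing bone and the stroma of remodelling tissue. It had the highest fold change of the 10, from 26.2 ± 8.65 CPM (SD, n = 6) in naïve libraries to 675, 817 and 1086 CPM in the day 7 injured ones. The log2 fold change was 5.05 (SE 0.25, FDR 2.29e-09) against naïve mice and 5.48 (SE 0.36, FDR 2.23e-08) against contralateral knees. Its range elsewhere was 13.7 to 42.5 CPM, so that the groups did not overlap. Tnc, the gene of tenascin C, which is known to be induced by mechanical load and tissue injury, was abundant before injury and changed less. It was at 1402, 1559 and 1860 CPM in day 7 injured libraries and 589 ± 92.8 CPM (SD, n = 6) in naïve ones. This is a log2 fold change of 1.47 (SE 0.13, FDR 9.03e-07), and against contralateral knees it was 1.10 (SE 0.16, FDR 9.08e-05).

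The thrombospondins are calcium-binding glycoproteins. The trimeric members, Thbs1 and Thbs2, are known to bind CD36 and CD47 and to restrain blood vessel growth, and the pentameric members, Thbs3 and Thbs4, are relatives of cartilage oligomeric matrix protein. Thbs2 changed most, at 990, 1171 and 1434 CPM in day 7 injured libraries, where naïve libraries ranged from 52.5 to 103.2 CPM. Its log2 fold change was 3.90 (SE 0.18, FDR 1.81e-09) against naïve mice and 4.14 (SE 0.24, FDR 1.38e-08) against contralateral knees. Thbs1, its closest relative in the list, was at 868, 913 and 1043 CPM against 530 ± 46.5 CPM (SD, n = 6) in naïve libraries, a log2 fold change of 0.85 (SE 0.14, FDR 0.000279). Both trimeric genes were therefore higher in every day 7 injured library than in any naïve library, but by 14.9-fold for Thbs2 and 1.80-fold for Thbs1.

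Thbs3 was the lowest of the thrombospondins, at 131, 158 and 180 CPM in day 7 injured and 23.3 ± 4.21 CPM (SD, n = 6) in naïve libraries, with a log2 fold change of 2.76 (SE 0.13, FDR 2.13e-09). Thbs4, a gene of tendon and muscle matrix, was at 583, 571 and 710 CPM, and naïve libraries ran from 111 to 353 CPM. Its log2 fold change was 1.52 (SE 0.31, FDR 0.00195) against naïve mice and 2.05 (SE 0.38, FDR 0.000828) against contralateral knees. The highest naïve library thus lay below the lowest day 7 injured one, although naïve levels of Thbs4 spanned a wide range.

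Sparc encodes osteonectin, a collagen chaperone of bone and soft tissue, and was the most abundant member in all groups. It reached 6295, 6440 and 7942 CPM in day 7 injured libraries, against 2415 ± 365 CPM (SD, n = 6) in naïve ones, a log2 fold change of 1.53 (SE 0.16, FDR 4.1e-06). Spp1, the gene of osteopontin, was at 977, 1043 and 997 CPM in day 7 injured libraries and between 609 and 940 CPM in naïve ones. The groups did not overlap, but the log2 fold change of 0.42 (SE 0.15) missed the threshold at an FDR of 0.0504 and lies under 1.5-fold. Against contralateral knees, which overlapped with the injured ones, it was 0.26 (SE 0.22, FDR 0.458).

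Tgfbi encodes a secreted adhesion protein with the same kind of repeated domain as periostin. It was at 354, 413 and 480 CPM in day 7 injured libraries, and 5 of the 6 naïve libraries lay between 139 and 176 CPM. Naïve replicate 5 was at 491 CPM, above all day 7 injured libraries, and the log2 fold change of 0.98 (SE 0.46) was not called (FDR 0.124). Without that library it was 1.41 and was called (FDR 0.0116). Against contralateral knees, which did not overlap with the injured ones, the log2 fold change was 1.40 (SE 0.52, FDR 0.0729). That call too appeared without naïve replicate 5 or day 1 contralateral replicate 3 (FDR 0.0247 and 0.0341) and when only the groups compared were fitted (FDR 0.00108).

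3 libraries from different groups shared high Tgfbi, namely naïve replicate 5, day 1 contralateral replicate 3 (474 CPM) and day 1 injured replicate 2 (387 CPM). No other library outside the day 7 injured group was above 176.3 CPM. The same libraries were the highest for Postn outside day 7 injured knees, at 305, 209 and 207 CPM. They also had the highest sums of the 10 synovial fibroblast markers outside that group, at 1783, 2011 and 2141 CPM, where the other 12 libraries lay between 694 and 1384 CPM. Prg4, the gene of lubricin, a surface lubricant of cartilage and synovium, was the most abundant of these markers in all 18 libraries. Prg4 alone was at 1409, 1649 and 1775 CPM in the 3 libraries, and between 240.5 and 892 CPM in the other 12. The rest of each sum was lower in these 3 libraries than in the other 12, so that the high sums describe this 1 gene and not the list. The part of synovial RNA in these levels was not tested.

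Between day 7 injured and day 1 injured libraries, 8 of 10 genes were called higher and none lower, where 9.04% of all genes tested were called higher and 6.38% lower. They were again Postn, Tnc, Tnn, Thbs1 to Thbs4 and Sparc. Postn had been at 114, 207 and 148 CPM at day 1, and its log2 fold change from day 1 to day 7 was 4.19 (SE 0.57, FDR 0.000105). For Thbs4 the value of 1.34 (SE 0.38, FDR 0.0199) was not called when day 1 injured replicate 2 or 3 or day 7 injured replicate 3 was left out (FDR 0.0608, 0.0775 and 0.0612).

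**Figure D2:**
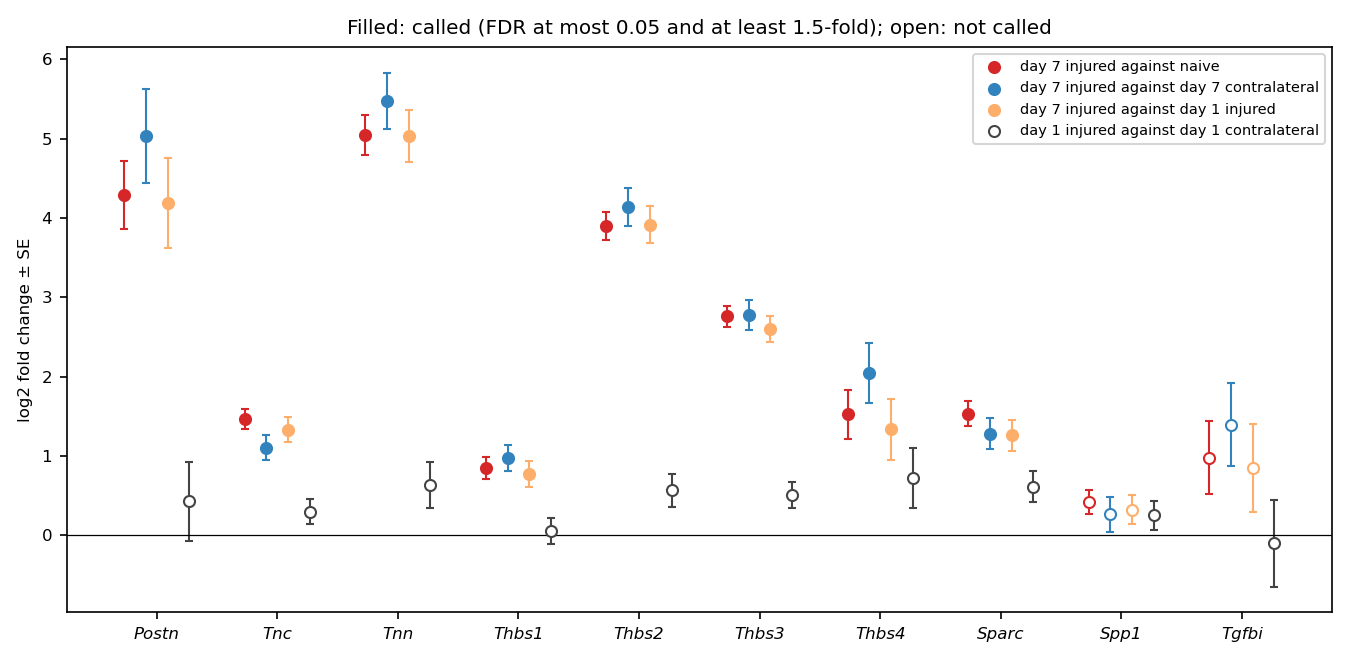
Log2 fold change with its SE for each gene in 4 comparisons, with filled points for genes called and open points for the rest. The 3 comparisons of day 7 injured libraries share those libraries, and day 1 injured against day 1 contralateral knees has no gene called.

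At day 1 none of the 10 genes was called. Injured against naïve libraries gave log2 fold changes between −0.02 (Thbs2) and 0.27 (Sparc), and no member had an unadjusted p below 0.05. Over all genes 0 of 21129 were called in either direction (0%) by edgeR, 959 had an unadjusted p below 0.05, and DESeq2 called 7 and limma-voom none. Injured against contralateral knees at day 1 also gave 0 calls over all genes (0%), with 1383 genes at an unadjusted p below 0.05 and none called by DESeq2 or limma-voom. In that comparison 9 of the 10 genes had positive values, and 4 had an unadjusted p below 0.05. These were Sparc at 0.61 (SE 0.19), Thbs3 at 0.50 (SE 0.16), Thbs2 at 0.56 (SE 0.21) and Tnn at 0.63 (SE 0.29), each with an FDR of 0.755. Cell markers, also without calls, had positive values for 11 of 11 chondrocyte, 8 of 8 muscle, 9 of 10 osteoblast and osteocyte and 7 of 8 osteoclast genes. Positive values were fewer for erythroid (0 of 7), platelet (0 of 5), neutrophil (1 of 8), macrophage (2 of 10) and pericyte (2 of 5) genes. For Thbs2, Tnn and Thbs3 the day 1 contralateral libraries overlapped with the naïve ones and were not called against them. Their differences from naïve mice were −0.58 (SE 0.19) for Thbs2, −0.62 (SE 0.26) for Tnn and −0.34 (SE 0.14) for Thbs3, at an FDR of 0.99975 for each.

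The contralateral knees gave no call against naïve mice at either time. At day 7 none of 21262 genes was called in either direction (0%) by edgeR, with 3220 at an unadjusted p below 0.05, 31 called by DESeq2 and none by limma-voom. At day 1 none of 21129 genes was called (0%), with 554 at an unadjusted p below 0.05, 2 called by DESeq2 and none by limma-voom. Tnc was the 1 member with an unadjusted p below 0.05 at day 7, at 0.34 (SE 0.13, FDR 0.266), and Postn was at −0.75 (SE 0.45, FDR 0.426), or −0.46 without day 7 contralateral replicate 1.

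Whether the difference between injured and contralateral knees itself differed between the days was tested as a contrast of the 4 groups. It was larger at day 7 for 5 of 10 genes and smaller for none, where 3.53% of 21262 genes were called larger and 0.245% smaller. The log2 difference of effects was 4.84 (SE 0.44, FDR 8.39e-06) for Tnn, 4.60 (SE 0.74, FDR 0.00138) for Postn, 3.57 (SE 0.31, FDR 6.29e-06) for Thbs2, 2.27 (SE 0.26, FDR 5.97e-05) for Thbs3 and 0.91 (SE 0.23, FDR 0.035) for Thbs1. Tnc lay beside the threshold at 0.80 (SE 0.22, FDR 0.0527). The call of Thbs1 was lost in 11 of 26 alternatives, day 7 contralateral replicate 1 left out being one of them, and that of Thbs3 with an offset for transcript length (1.69, FDR 0.104).

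Levels of different genes were compared per length, in the deposited TPM values, which divide by transcript length, within each group. In naïve cartilage the order was Sparc (620 ± 126 TPM, SD, n = 6), Spp1 (315 ± 77.2), Thbs1 (47.5 ± 5.9), Tgfbi (45.7 ± 31.6), Tnc (43.4 ± 9.28), Thbs4 (37.1 ± 15.9), Postn (25.6 ± 16.3), Thbs2 (7.21 ± 1.64), Thbs3 (4.7 ± 1.45) and Tnn (2.37 ± 0.834 TPM). The ranges of neighbours overlapped from Thbs1 down to Postn and from Thbs2 down to Tnn, although Thbs2 and Tnn, which are not neighbours, did not overlap. In day 7 injured libraries Postn stood second to Sparc, at 404 ± 150 TPM (SD, n = 3) against 1434 ± 339 TPM. It overlapped with Spp1 at 337 ± 49 TPM and was above it in 2 of 3 libraries. From Tnc (96.9 ± 25.4 TPM) through Thbs2 (87.6 ± 26.5), Thbs4 (85.4 ± 20.4), Tgfbi (69.2 ± 18.9) and Thbs1 (68.8 ± 14.9) to Tnn (63.8 ± 22.9), neighbours overlapped, and Thbs3 was lowest at 25.2 ± 6.68 TPM. Tnn and Thbs2, which were far below Tnc and Thbs1 in naïve cartilage, thus lay in the same range as these at day 7.

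At day 1 the order per length stayed close to the naïve one in both knees, with Sparc and Spp1 first and Thbs2, Thbs3 and Tnn last. In injured knees at day 1, Sparc was at 1091 ± 442 TPM, Spp1 at 492 ± 101 TPM and Tnn at 3.59 ± 1.48 TPM (SD, n = 3). In contralateral knees the values for these genes were 588 ± 79.7, 342 ± 25.5 and 1.88 ± 0.267 TPM at day 1 and 674 ± 297, 345 ± 232 and 1.55 ± 0.924 TPM at day 7.

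The transcripts of Postn did not rise in step. Shares are percentages of the estimated counts of the gene, as Kallisto divided its reads among transcripts, and 6 transcripts of Postn and Tnc with a mean share of at least 5% were tested. Postn-204, which lacks both optional exons, held 17.7%, 22.01% and 17.7% of Postn counts in the day 7 injured libraries. In naïve libraries it held from 38.8% to 79.8%, with a mean of 61.3% ± 15.98 (SD, n = 6), and in no library outside the day 7 injured group did it hold less than 38.8%. The mean share was 42.2 percentage points lower than in naïve mice (2-sided exact permutation test, p = 0.0238, the smallest that 3 against 6 libraries allow, adjusted p = 0.0476 over 6 transcripts). The test treats the 6 naïve libraries as separate samples, although in the scheme of the study left and right knees of the same naïve mice went to different libraries, so that the p may be too small. Postn-201 held 41.2% at day 7 and 17.96% in naïve libraries, and Postn-203 held 32.2% and 18.1%, with the same exact p for each. Against contralateral knees, where Postn-204 held 84.4%, 48.9% and 57.0%, the mean was 44.3 points lower, and 33.8 points lower without day 7 contralateral replicate 1. An exact test of 3 against 3 libraries cannot give a p below 0.1, and this was its value for the 3 Postn transcripts.

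Counted by exon over Postn-201 to Postn-204, a summary chosen after the shares were seen, 80.7% of Postn counts at day 7 came from transcripts with at least 1 optional exon, against 37.1% in naïve libraries. The 84-base exon was included in 48.1% ± 0.811 (SD, n = 3) of counts after injury and 18.4% ± 7.9998 (SD, n = 6) in naïve libraries. For the 81-base exon the shares were 39.0% ± 3.26 and 18.6% ± 9.36. Neither exon's groups overlapped. These values are sums of the transcript shares above and are no separate test. Postn-202, which holds both, reached 58.1, 207 and 316 CPM in day 7 injured libraries and was at or under 0.0216 CPM in all 6 naïve libraries. In the other groups it was also present in some libraries, at up to 5.39 CPM in day 1 injured, 5.49 CPM in day 1 contralateral and 6.07 CPM in day 7 contralateral ones.

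**Figure D3:**
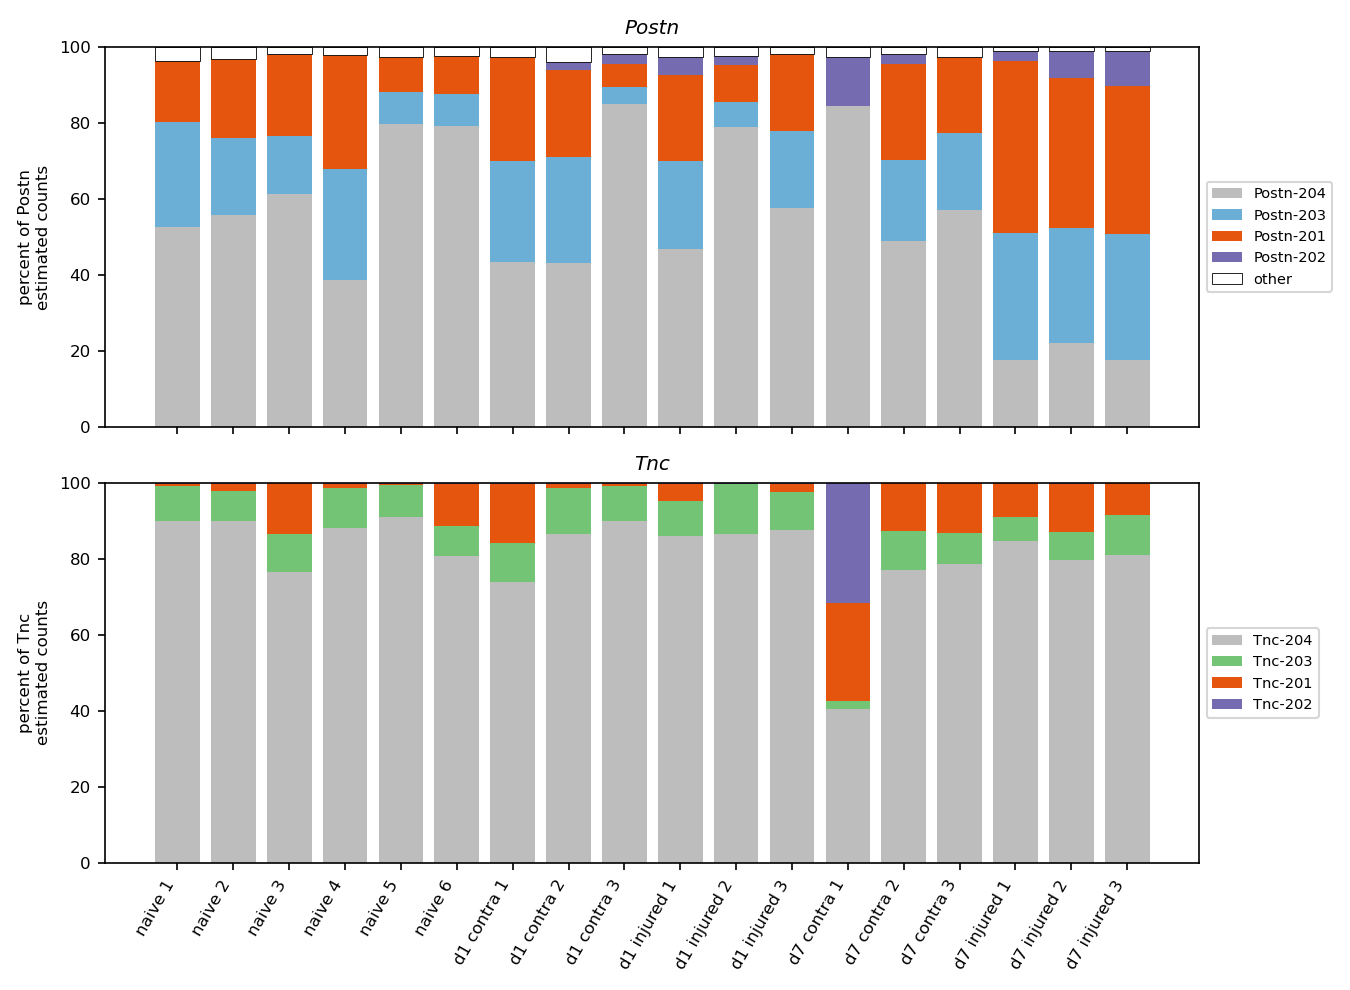
Stacked bars give the percent of estimated counts held by each transcript of Postn (top) and Tnc (bottom) in each of the 18 libraries. In the 3 day 7 injured libraries Postn-204 holds 17.7% to 22.01% of Postn, below every other library, and Tnc-204 is the main Tnc transcript in all 18.

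On the scale of CPM, both kinds of Postn transcript were higher at day 7. Postn-204 was at 370, 639 and 613 CPM in injured libraries and 96.3 ± 79.2 CPM (SD, n = 6) in naïve ones, and the ratio of the means was 5.62. The transcripts with an optional exon together were at 1697, 2233 and 2818 CPM against 45.6 ± 21 CPM, a ratio of the means of 49.3. Outside day 7 injured knees, the transcripts with an optional exon stayed between 6.07 and 84.7 CPM, and Postn-204 ranged from 28.9 to 243 CPM. The 4 libraries with Postn-204 above 100 CPM were naïve replicates 5 and 6, day 1 contralateral replicate 3 and day 1 injured replicate 2, that is the 3 libraries with high Tgfbi and 1 other. In naïve replicate 6, Tgfbi was at 139 CPM and the synovial fibroblast sum at 749 CPM, both low among the naïve libraries. Prg4 was 373 CPM of that sum, and the rest of it was about the same as in naïve replicate 5, where Prg4 was at 1409 CPM.

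**Figure D4:**
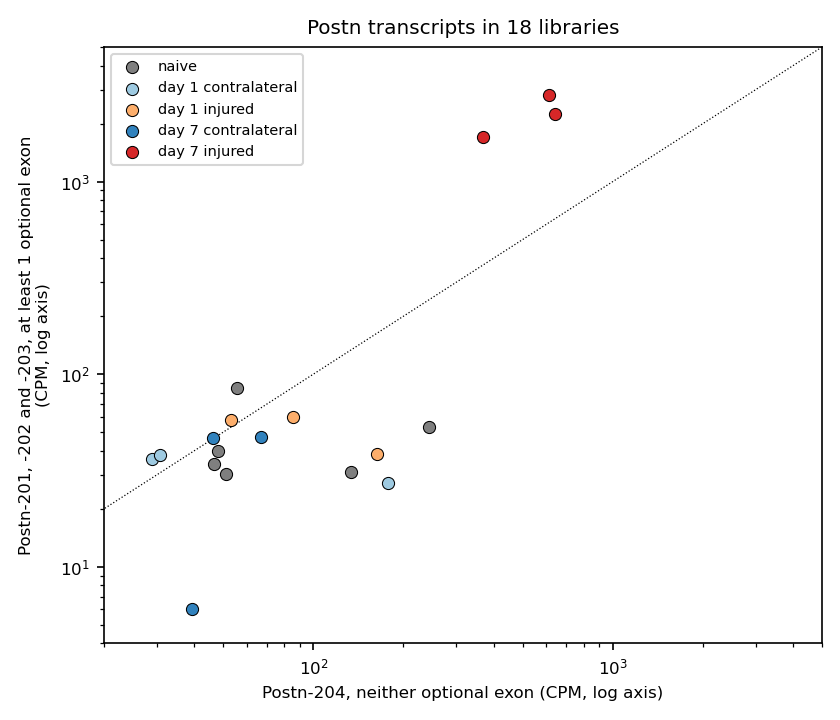
Summed CPM of Postn-201, Postn-202 and Postn-203 (vertical) against CPM of Postn-204, which has neither optional exon (horizontal), on log axes, with a point for each library and a dotted line where both are equal. The 3 day 7 injured libraries lie far above the line. Far below it lie 4 libraries of other groups with Postn-204 above 100 CPM, and day 7 contralateral replicate 1 at 6.07 CPM with an optional exon.

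Tnc (ENSMUSG00000028364) lies on the minus strand at chr4:63959785-64047015. Its main transcript, Tnc-204, and Tnc-201 share their coding length of 6057 bases and differ in where they start, at 64047015 and 64020725. Tnc-203 starts where Tnc-201 does and has a further exon of 273 bases, 91 codons long, at chr4:63984460-63984732. Tnc-204 held 81.9% ± 2.62 (SD, n = 3) of Tnc counts in day 7 injured and 86.0% ± 5.92 (SD, n = 6) in naïve libraries, and these overlapped (exact permutation p = 0.262, adjusted p = 0.314). Tnc-203 held 8.06% and 9.06% (exact permutation p = 0.357). Tnc-201 ranged from 0.237% to 13.4% in naïve libraries, and held 9.97% ± 2.43 at day 7 (exact permutation p = 0.214). Against contralateral knees, Tnc-204 was 16.4 points higher after injury, 81.9% against 65.4%, with an exact permutation p of 0.1, the smallest that 3 against 3 libraries allow. Without day 7 contralateral replicate 1 the difference was 4.00 points. Tnc-201 held 9.97% against 17.1% (exact permutation p = 0.2), a difference of −7.09 points that became −2.81 without that library. The 273-base exon, which adds a repeat to the protein's run of fibronectin-type domains, stayed a minor form in all 5 groups, with group means from 6.9% to 10.7%.

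The partners with which these proteins assemble were taken from a list of 8 genes, and all 8 were called higher in day 7 injured than in naïve libraries, with log2 fold changes from 1.58 to 3.65, where 10.4% of all genes were called higher. Col3a1, Col5a1 and Col12a1, collagens of fibrous matrix, were at 3.65 (SE 0.27), 3.25 (SE 0.15) and 3.19 (SE 0.15). Fn1, which encodes fibronectin, was at 1.63 (SE 0.22), and Bmp1 and Lox, whose enzymes process and crosslink collagen, were at 1.58 (SE 0.11) and 2.27 (SE 0.38). Col1a1 and Col1a2, the genes of type I collagen, were at 2.05 (SE 0.25) and 1.91 (SE 0.23) against naïve mice. Against contralateral knees they were at 0.77 and 0.75 and not called (FDR 0.188 and 0.152), while the other 6 were called higher, where 9.33% of all genes were. Col1a1 was at 52441, 15476 and 21550 CPM in the day 7 contralateral libraries and at 51090, 46982 and 54701 CPM in the injured ones, so that in CPM replicate 1 of the contralateral knees alone lay among the injured libraries. In TPM it did not, with contralateral libraries at 1774, 1734 and 1995 TPM and injured ones at 3170, 3437 and 4357 TPM. TPM is not scaled by TMM, however, and other genes of replicate 1 were also low in it. Sparc was at 332, 870 and 819 TPM in the 3 contralateral libraries, but at 2703, 2701 and 3103 CPM. The TPM values of replicate 1 are therefore not comparable with those of other libraries. Without day 7 contralateral replicate 1, Col1a1 was at 1.48 (SE 0.34, FDR 0.00609) and Col1a2 at 1.33 (SE 0.31, FDR 0.00708), and all 8 genes were called higher.

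Of 20 other matricellular and related genes, 19 were tested, and 12 were called higher and 1 lower against naïve mice, with a median log2 fold change of 0.79, where 10.4% of all genes were called higher and 6.11% lower. The CCN family of growth factor binding proteins had 5 of 6 members called higher, from 0.60 (SE 0.14) for Ccn2 to 2.36 (SE 0.40) for Ccn3. Fstl1, a follistatin-like relative of Sparc, was at 2.71 (SE 0.21), and Smoc1 and Smoc2, further relatives, were at 2.04 (SE 0.24) and 1.10 (SE 0.13). Comp, the pentameric thrombospondin of cartilage and tendon, was at 1.39 (SE 0.20). Mepe, an osteocyte gene of the same family as Spp1, was the 1 called lower, at −0.61 (SE 0.14), and its relative Ibsp was called higher at 0.69 (SE 0.12). Against contralateral knees 11 of 19 were called higher and none lower, where 9.33% and 3.23% of all genes were. Without day 7 contralateral replicate 1 it was 10 higher, Sparcl1 being lost (1.11, FDR 0.0996), and 1 lower, the osteocyte gene Dmp1 (−0.90, FDR 0.0200).

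Of 21 receptor genes 9 were called higher and none lower against naïve mice, with a median log2 fold change of 0.48, where 10.4% of all genes were called higher. Against contralateral knees 9 were also called higher and none lower, with Cacna2d1 in place of Sdc4, where 9.33% of all genes were called higher. Without day 7 contralateral replicate 1 there were 9 as well, with Sdc4 (1.11) called and Itgav (0.56) under 1.5-fold. Of the 9 integrin chains in the list, Itga5, Itgb5, Itgb1 and Itgav were called higher against naïve mice, at 1.31 (SE 0.38), 1.10 (SE 0.12), 1.01 (SE 0.09) and 0.76 (SE 0.12). The other 5 were not called. Itga4 was at −0.38 (FDR 0.00578) and Itga9 at 0.30 (FDR 0.0064), both under 1.5-fold, and Itgb3 was at −0.28, Itgb6 at −0.53 and Itga8 at 0.20 (FDR 0.0625, 0.147 and 0.703). Sdc1 and Sdc4, which encode syndecans, were at 1.84 (SE 0.25) and 0.97 (SE 0.14), and Egfr, whose product binds repeats of tenascin C, was at 1.60 (SE 0.13). The thrombospondin receptor Cd47 was at −0.00 (SE 0.09, FDR 0.995). Cd36, another, at −0.54 (SE 0.13, FDR 0.00714), and Cd44, the osteopontin and hyaluronan receptor, at 0.48 (SE 0.12, FDR 0.00808), passed the FDR but lay under 1.5-fold and were not called. In the difference between the injury effects, 5 of 8 matrix partners, 3 of 19 other matricellular genes and 2 of 21 receptors were called larger at day 7 and none smaller, where 3.53% of all genes were called larger and 0.245% smaller. Without day 7 contralateral replicate 1 these counts were 5, 2 and 3, and Dmp1 was called smaller.

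**Figure D5:**
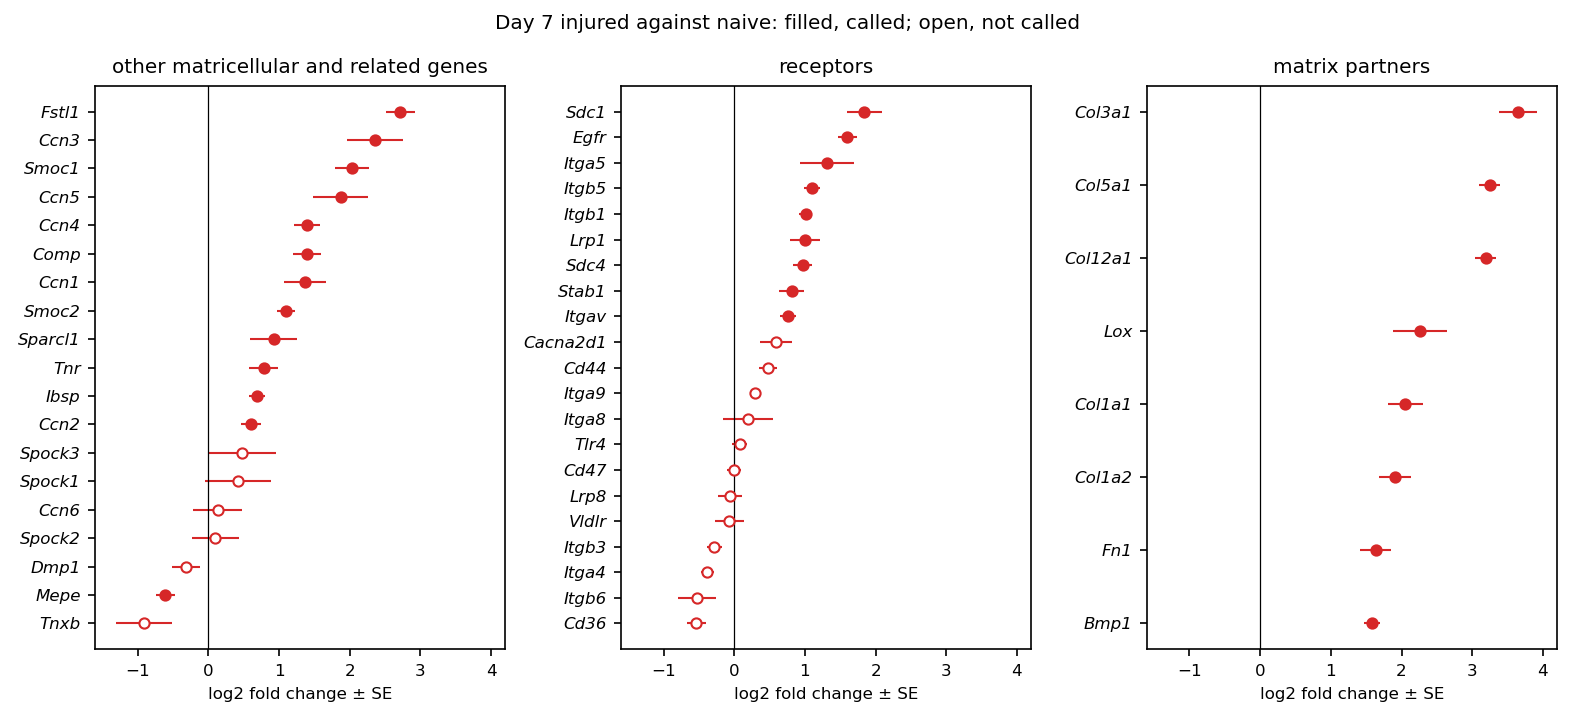
Log2 fold change with its SE between day 7 injured and naïve libraries for other matricellular genes, receptors and matrix partners, with filled points for genes called. All 8 matrix partners, 12 of 19 other matricellular genes and 9 of 21 receptors are called higher, and 1 other matricellular gene is called lower. Of all genes tested, 10.4% were called higher and 6.11% lower.

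Markers of other cells moved with these genes, and their counts stand beside the 10.4% of all genes called higher and 6.11% called lower in this comparison. All 4 tendon and ligament markers were called higher in day 7 injured than in naïve libraries, with Tnmd at 3.68 (SE 0.37) and Scx at 2.94 (SE 0.23). Their sum was 162, 167 and 188 CPM in day 7 injured libraries and between 12.3 and 43.8 CPM in the other 15, and none was at 0. Of 10 synovial fibroblast markers 4 were called higher (Thy1, Pdgfra, Fap and Cd34), with sums of 1422, 1931 and 2594 CPM, which overlap with those of other libraries. Prg4, not called at 0.65 (SE 0.42, FDR 0.266), held 730, 1133 and 1771 CPM of these sums. Without Prg4, the rest of the sum was higher in each day 7 injured library than in any of the other 15. Of the pericyte list 3 of 5 and of the endothelial list 4 of 7 were called higher, with sums of 525.8 ± 71.4 against 269 ± 47.4 CPM and 628 ± 39.2 against 532 ± 34.3 CPM. Chondrocyte markers gave 3 of 11 higher (Acan, Sox9 and Col11a1) and 1 lower (Chad), osteoblast and osteocyte markers 1 of 10 higher and 2 lower, and osteoclast markers 1 of 8 higher (Ctsk). Blood lists went the other way, with 4 of 7 erythroid, 2 of 8 neutrophil and 3 of 5 platelet markers lower, and no call among 10 macrophage or 8 muscle markers. The part of a changed mix of cells in the rise of the matricellular genes was not tested.

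For each gene, the 3 genes with the highest Pearson correlation of log2 CPM over the 18 libraries were listed. Since the 3 day 7 injured libraries lie apart for most of these genes, r describes mainly that gap and is given without a test. Postn went with Sfrp1, Cthrc1 and Kcnj15 (r = 0.987, 0.981 and 0.981), and Tnn with Col12a1 (0.991), Mest and Tubb2b. Thbs2 and Thbs3 shared Col6a2 (0.989 for each), and Tnc went with 2310022B05Rik, Mmp23 and Mmp14 (0.979, 0.977 and 0.976). Thbs1 (Slc44a1, 0.969), Thbs4 (Sema3f, 0.956), Sparc (Galnt5, 0.977) and Tgfbi (Timp1, 0.985) had other partners first, and Spp1 had the lowest best value (Gpr137b-ps, 0.891).

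Because 8 of the 10 genes were higher together, the promoters given by RefSeq for GRCm38.p6 were searched for 5 short motifs on both strands. The window was 250 bases before to 50 after a start, and windows were held for 9 of the 10 genes, all but Thbs1. These genes had 12 windows, since Postn, Tnc and Spp1 have 2 each, and the shares of all windows are given beside theirs. The AP-1 motif TGANTCA was in 0 of 12 and in 7.81% of all 32851, and the TEAD motif GGAATG in 2 (Tnn and Thbs4) and 14.7%. CAGACA, a Smad motif, was in 6 of 12 (5 genes) and 21.0%, the Sp1 motif GGGCGG in 5 of 12 (4 genes) and 35.7%, and TATAAA in 5 of 12 (4 genes) and 13.6%. The 2 Tnc windows overlap, so that the same Tnc site is counted in both for each of these 3 motifs. The genes with a match include Spp1 (CAGACA and TATAAA) and Tgfbi (GGGCGG), which were not called. No matches of different motifs overlapped in the windows shown, and a match describes the sequence only. The 250 bases before the start are shown for Postn (chr3:54360857-54361106, plus strand) and Thbs2 (chr17:14694263-14694512, minus strand), as the genes with large changes that have a TATAAA match, with all matches in capitals. The Postn match begins 26 bases before the start, and Thbs2 has its match at 126 bases and 2 CAGACA matches at 67 and 44 bases before the start, all 3 on the reverse strand of the gene.

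Postn promoter: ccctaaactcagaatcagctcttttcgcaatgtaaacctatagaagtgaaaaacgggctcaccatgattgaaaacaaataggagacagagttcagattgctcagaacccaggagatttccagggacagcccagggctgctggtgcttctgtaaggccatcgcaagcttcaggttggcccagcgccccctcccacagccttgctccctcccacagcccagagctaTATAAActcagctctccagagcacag

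Thbs2 promoter: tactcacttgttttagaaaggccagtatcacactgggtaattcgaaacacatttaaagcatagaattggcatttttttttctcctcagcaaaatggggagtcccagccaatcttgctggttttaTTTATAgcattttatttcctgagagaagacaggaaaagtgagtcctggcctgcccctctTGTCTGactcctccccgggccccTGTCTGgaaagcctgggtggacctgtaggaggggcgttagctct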

How the data were processed

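The authors trimmed the reads of 18 libraries, estimated transcript levels by Kallisto pseudo-alignment against mouse GRCm38, and deposited estimated counts and TPM per transcript. The labels name another build, GRCh38. Of 137436 transcripts, 135107 (98.3%) matched GENCODE M21 by identifier without version, and 99.3% of those had the same length. The other 2329 held 0.667% to 3.90% of the counts of a library. Estimated counts were summed per gene, rounded and tested with edgeR 4.0.16 (R 4.3.3) after TMM normalisation and its filter on low counts. Comparisons without day 7 contralateral libraries used 15 libraries, the others 18. Alternatives were DESeq2 1.42.0, limma 3.58.1 (voom), other scaling, no filter, a transcript length offset, other thresholds and leaving out each library. Transcript shares were compared by exact permutation with Benjamini-Hochberg adjustment. In simulated counts with 200 genes changed 3-fold, the edgeR test called 181 between day 7 injured and naïve libraries, with 6 false calls among 20737 genes. For the difference between the injury effects it called 141 of 200, with 9 false calls among 20811 genes. The simulated libraries were independent of one another, and the changed genes were picked only among those above a low mean count. False calls among libraries that share mice are therefore not measured by it. The study removed 1 library for a low mapping rate and its identity is not given in the sources used here. Injured and contralateral libraries of a day came from the same mice, and naïve libraries may share mice too. P-values therefore measure only the spread between libraries. The genes, lists and motifs, and the rule naming genes (the members, the listed genes and the 3 most correlated genes per member), were chosen with earlier results of these data known. Protein sequences were not used here.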

Additional observations from a re-analysis of the deposited data

Results flagged for a closer look

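In the naïve group, 19 sets of 6 values were searched for a library far from the others, and chance marks about 1 group in 20. Tgfbi in naïve replicate 5 was marked as high at 491.3 CPM, the next being 176 CPM. Thbs1 in naïve replicate 6 was marked as low at 442.5 CPM, the other naïve libraries lying between 522 and 566 CPM. For 5 genes the injured-contralateral difference itself differed between day 7 and day 1 by edgeR's contrast, with log2 differences of 4.84 for Tnn, 4.60 for Postn, 3.57 for Thbs2, 2.27 for Thbs3 and 0.91 for Thbs1. Of all 21262 genes tested, 3.53% were called larger at day 7 and 0.245% smaller. The call of Thbs1 was lost without day 7 contralateral replicate 1 (0.85, FDR 0.0527), and that of Thbs3 with an offset for transcript length.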

How the results depend on the processing

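No paired analysis was possible because the labels do not say which libraries share mice and carry no replicate number. The study modelled a correlation within pools of mice, which could not be fitted here. The number of members called at day 7 stayed at 8 against naïve mice and contralateral knees under the alternatives, apart from 9 without naïve replicate 5 in both, and 9 against contralateral knees without day 1 contralateral replicate 3 or with only the groups compared. Against day 1 injured knees it was 7 or 8. For the difference between the injury effects it was 5, between 4 and 6 when single libraries were left out (4 without day 7 contralateral replicate 1), 6 by DESeq2 and limma-voom, 4 at an FDR of 0.01 or with only the groups compared, and 3 with an offset for transcript length. In the other 4 comparisons it was 0 throughout. The difference of effects of Spp1, 0.01 and never called, turned to −0.002088 with DESeq2 size factors and −0.002048 with DESeq2, and ran from −0.2099 to 0.1531 when single libraries were left out. The Postn-204 share differed from naïve mice by −46.67 to −38.47 points when single libraries were left out, with adjusted exact p-values of 0.0714 to 0.143, since fewer libraries raise the smallest p. The same held for Postn-201 and Postn-203. The Tnc-203 share differed from contralateral knees by 1.16 points and by −1.175 to 2.79 with single libraries left out, and the cause was not tested. Thbs2 at day 1, injured against naïve, was never called and ran from −0.1191 to 0.1508 when single libraries were left out. Of the alternative values for single genes named in the text, 1248 kept their direction and call, 10 gained a call, 16 lost one and 11 changed direction, all in these values of Spp1 and Thbs2. In the 4 comparisons without calls, other members near 0 changed sign as well. Between injured and naïve libraries at day 1, 6 of the 10 members did so, Thbs2 included, among them Postn (−0.1537 to 0.4634) and Tgfbi (−0.4501 to 0.5734). Counts of Postn in day 7 contralateral replicate 1, 596 in all, are few for transcript shares.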

Other observations

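Tnc-202, a Tnc transcript of 5 exons, was estimated at 2758 counts (215 CPM) in day 7 contralateral replicate 1. In the other 17 libraries it was between 17.7 and 70.6 counts, or 0.875 to 2.51 CPM. The share of Tnc-204 in that library was 40.5%, and in the other 17 libraries it lay between 73.96% and 91.0%. The same library had Postn-201 and Postn-203 near 0 and Postn-202 at 77.9 of its 596 Postn counts.

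The shares of Tnc-201, which starts downstream of Tnc-204, were at 25.6%, 12.6% and 12.98% in day 7 contralateral libraries. Day 1 contralateral libraries had 15.4%, 1.16% and 0.618%, and day 1 injured libraries had 4.70%, 0.0303% and 2.27%. Naïve libraries ranged from 0.237% to 13.4%, which overlapped with each of these groups.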
